A study of Mus musculus with 39 samples.

Results

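Mu-crystallin and 4 genes of thyroid hormone handling were followed across sorted astrocytes of 2 mouse forebrain regions. The 5 genes were Crym, Dio2, Slco1c1, Thra and Thrb, taken by symbol from the 55401 gene IDs of the count table through the GENCODE M21 annotation, and all 5 were found and passed the filter on low counts in every comparison. Which measured values led to the choice is not recorded. Crym is treated as chosen by its difference between nucleus accumbens and prefrontal cortex in control mice, the comparison in which it alone was called, so that difference is described without a test. The other 4 genes were joined to it for their function.

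The study concerns CREB, a transcription factor, in astrocytes of male mice after chronic social defeat, a stress model in which a larger aggressor repeatedly attacks the animal. Its 39 libraries are total RNA from cells labelled as astrocytes and isolated with beads against ACSA-2, an epitope of the sodium pump subunit Atp1b2. The nucleus accumbens (NAc, ventral striatum) gave 8 libraries of susceptible, 7 of resilient and 7 of control mice, and the prefrontal cortex (PFC) gave 6 susceptible, 5 resilient and 6 control libraries. The labels give a mouse number for each library, no strain or age, and a bead protocol that names NAc tissue also on the PFC libraries, so how the PFC cells were isolated is stated only as far as that.

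Thyroid hormone reaches the brain mainly as the prohormone T4, which carriers such as OATP1C1 (the product of Slco1c1) take across the blood-brain barrier and into astrocytes. Type 2 deiodinase, encoded by Dio2, turns T4 into the active hormone T3 and in the brain is found mostly in astrocytes and in tanycytes of the hypothalamus. T3 acts through the nuclear receptors TRα and TRβ, encoded by Thra and Thrb, which bind DNA with retinoid X receptors and exchange corepressors for coactivators when the hormone binds. Mu-crystallin, encoded by Crym, is an NADPH-dependent T3-binding protein of the cytosol, and in mice it is known as a protein of striatal astrocytes.

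In mm10 coordinates, Crym (ENSMUSG00000030905.5) lies on the minus strand of chr7:120186380-120202111. Dio2 (ENSMUSG00000007682.6) lies on the minus strand of chr12:90724552-90738438. Slco1c1 (ENSMUSG00000030235.17) lies on the plus strand of chr6:141524368-141570177. Thra (ENSMUSG00000058756.13) lies on the plus strand of chr11:98740638-98769006, and Thrb (ENSMUSG00000021779.17) on the plus strand of chr14:17660261-18038090. The deposited FPKM divide by this whole span, introns included, which is 15732 bases for Crym and 377830 bases for Thrb. Over 1075 bases, Thra overlaps Nr1d1 on the opposite strand, 3.79% of the span of Thra, and the strand setting of the counting is not given. Thrb holds the antisense gene Gm48321, which covers 24.0% of its span at a median of 0.358 FPKM. Reads of overlapping genes could not be told apart.

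Since the study is about CREB, the promoters that RefSeq lists for these genes (build GRCm38.p6, 250 bases before to 50 after the start) were searched for 2 motifs on both strands. These were the full cAMP response element, TGACGTCA, to which CREB binds, and the DR4 thyroid hormone response element, which is AGGTCA, any 4 bases and AGGTCA again. The first motif reads the same on both strands, and the motifs do not overlap. Promoters of Dio2, Slco1c1 and Thrb were matched. No entry was available for Crym or Thra, so their promoters were not searched. The promoters of Dio2 and Slco1c1 are printed because these are the hormone-activating enzyme and the T4 carrier, whose levels moved together in PFC. Capitals mark the cAMP response element, and each sequence runs 5′ to 3′ on the strand of its gene.
Dio2, chr12:90738989-90739288, minus strand: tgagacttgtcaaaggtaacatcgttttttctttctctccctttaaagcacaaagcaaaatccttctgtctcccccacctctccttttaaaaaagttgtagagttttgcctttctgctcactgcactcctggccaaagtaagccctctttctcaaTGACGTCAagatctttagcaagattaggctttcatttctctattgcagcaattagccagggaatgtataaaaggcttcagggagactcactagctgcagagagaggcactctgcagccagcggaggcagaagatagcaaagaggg
Slco1c1, chr6:141524104-141524403, plus strand: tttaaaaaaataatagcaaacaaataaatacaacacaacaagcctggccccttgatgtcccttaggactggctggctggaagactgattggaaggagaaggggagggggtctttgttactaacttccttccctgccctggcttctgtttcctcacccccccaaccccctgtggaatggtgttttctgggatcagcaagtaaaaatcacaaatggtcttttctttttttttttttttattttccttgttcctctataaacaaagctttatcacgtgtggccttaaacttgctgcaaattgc
The Dio2 promoter held the full cAMP response element at 95 to 88 bases before the RefSeq start. This RefSeq start lies 600 bases upstream of the start of the GENCODE gene span used for counting. Of 32851 promoters in the same table, 588 (1.79%) held these letters. Neither motif was found in the Slco1c1 window or in either of the Thrb windows. The direct repeat was found in 5 promoters (0.0152%), none of them of Dio2, Slco1c1 or Thrb. A match is a description of the letters and not evidence of binding.

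The libraries held 941450 to 37339379 counts assigned to genes, with a median of 11264270. Cover was also seen over genes taken here to be little used by brain cells. Together, 1479 olfactory, vomeronasal and trace amine receptor genes had 13.4% to 80.9% of 0.766 FPKM, the level at which an even spread of all counts over gene spans would put each gene. This receptor level is called the background here, and its median by library was 58.1% of the even value. Astrocyte markers were present in both regions: the 13 markers summed to 50.8 to 289.8 FPKM in NAc and 45.0 to 547 FPKM in PFC, and none was at 0 in all libraries of a group. The resilient NAc libraries had the lowest median astrocyte sum of the 6 groups, 87.3 FPKM, against 148.9 FPKM in control NAc libraries. Oligodendrocyte markers were also present, with 8 markers summing to 19.6 to 183 FPKM in NAc and 15.2 to 78.8 FPKM in PFC. The median astrocyte marker stood at 8.20 to 29.9 times the background by group median, and the median oligodendrocyte marker at 4.71 to 14.9. The astrocyte value was the higher in each of the 6 groups. In some single libraries the order was reversed, as in NAc control replicate 4 (31.5 for astrocyte and 38.5 for oligodendrocyte markers) and NAc resilient replicate 4 (5.27 and 7.27). The 5 cortical excitatory neuron markers summed to 2.48 to 6.17 FPKM in NAc and to 3.52 to 38.3 FPKM in PFC. In bulk samples, fewer cells of a type and less RNA per cell cannot be told apart.

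Against this background the 5 genes stood at different levels. Among 20418 protein-coding genes ranked by mean FPKM, with the background receptor genes left out, Crym was at percentile 99.3 in NAc and 80.9 in PFC. Dio2 was at percentile 99.0 in NAc and 99.5 in PFC, and Slco1c1 at 98.8 in NAc and 98.9 in PFC. Thra was at percentile 97.8 in NAc and 97.6 in PFC. Thrb was at percentile 44.5 in NAc and 67.6 in PFC, with a median of 1.61 times the background in NAc and 1.84 times in PFC. The cover of Thrb per base of span therefore lay close to that of the receptor genes, and its values carry a large share of background. Since FPKM divide by the whole span, introns included, these ranks do not compare amounts of RNA between genes. By mean log2 CPM in the NAc fit, Thrb was the highest of the 5, at 8.11 against 5.97 to 7.61. The plot of FPKM by library shows these levels.

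**Figure D1:**
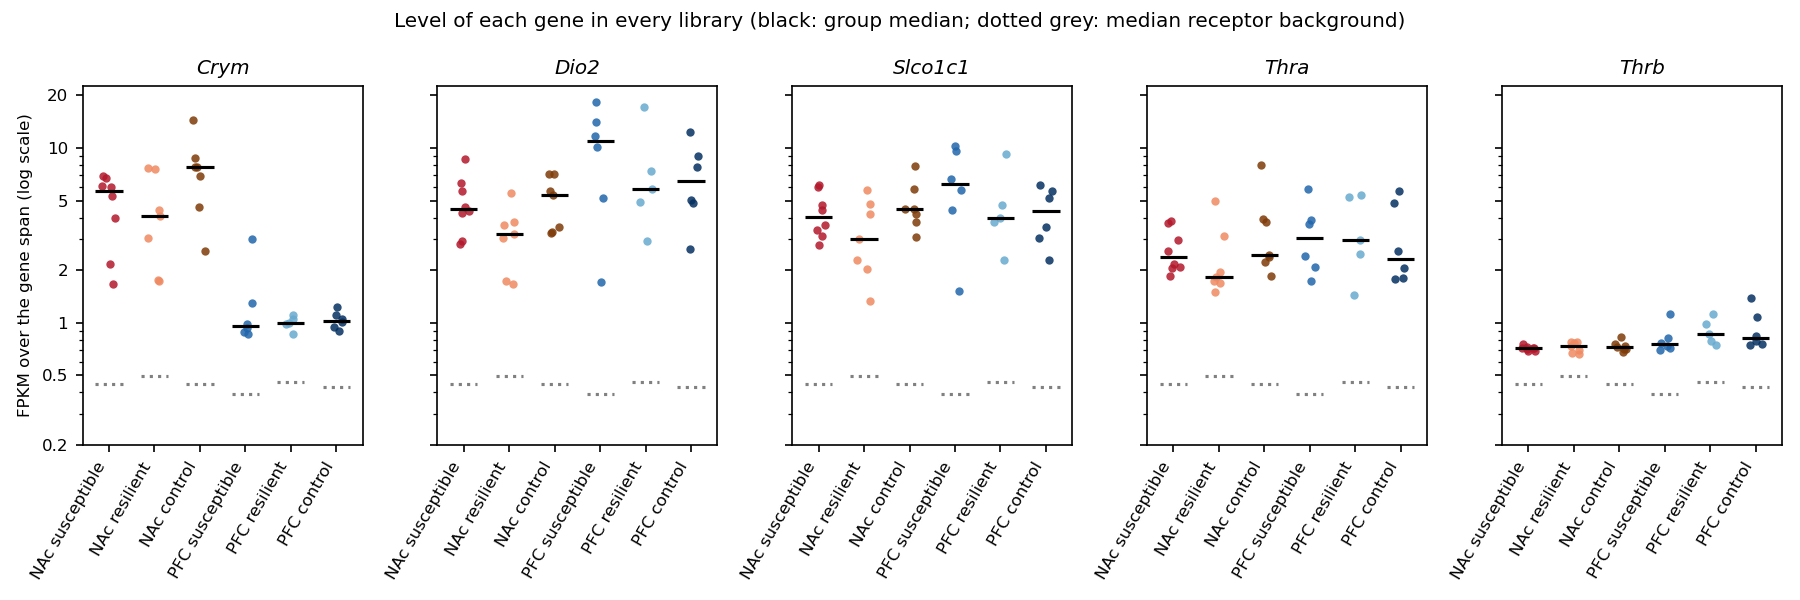
FPKM over the gene span (log scale) of Crym, Dio2, Slco1c1, Thra and Thrb in each of 39 libraries, by region and condition; points are libraries, black bars group medians, and dotted grey bars the group's median receptor background. Crym was higher in NAc, with 1.67 to 14.5 FPKM in NAc and 0.864 to 3.03 FPKM in PFC, where 1 susceptible library reaches into the NAc range, while Dio2 and Slco1c1 overlap between the regions and Thrb stays within 0.661 to 1.38 FPKM.

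Crym, the T3-binding protein, had the highest level in control NAc libraries and its lowest in the PFC. In control mice the 7 NAc libraries had 2.57 to 14.5 FPKM with a median of 7.74 FPKM. The 6 control PFC libraries had 0.899 to 1.23 FPKM with a median of 1.03 FPKM. Every NAc library stood above every PFC library. Means were 7.55 ± 3.72 FPKM in NAc and 1.04 ± 0.117 FPKM in PFC (SD, n = 7 and 6), and the fitted log2 difference was 2.81 ± 0.41 (SE). Of all 38171 genes tested, 0.00262% were called in this comparison, which is Crym alone. Crym was also the 1 gene of the 5 whose ranges did not overlap, as was so for 0.382% of genes. Since this comparison is taken to have chosen the gene, nothing is read from these counts.

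The same direction was seen in stressed mice, which are other libraries. In susceptible mice, the 8 NAc libraries had 1.67 to 6.94 FPKM with a median of 5.65, and the 6 PFC libraries had 0.864 to 3.03 FPKM with a median of 0.960. One PFC library, susceptible replicate 5 at 3.03 FPKM, lay above 2 of the 8 NAc libraries, and the other 5 PFC libraries lay below all of them. The log2 difference was 1.77 ± 0.39, at an unadjusted p = 6.49e-05 and an adjusted p = 0.387 over all genes (edgeR quasi-likelihood test). Without susceptible replicate 5 of the PFC it was 2.15. No gene of the 5 had ranges apart (0.076% of genes did), and the 1 gene called of 38171 (0.00262%) was lower in NAc and not among the 5. In resilient mice, the 7 NAc libraries had 1.74 to 7.69 FPKM with a median of 4.08, against 1.05, 0.868, 1.11, 1.00 and 0.988 FPKM in PFC. These ranges did not overlap, as was so for 0.33% of genes, and Crym was the 1 gene of the 5 in which they did not. The log2 difference was 1.90 ± 0.43 (unadjusted p = 9.37e-05, edgeR adjusted p = 0.251), with 0% of genes called and 5564 at an unadjusted p under 0.05. Neither difference passed the 0.05 threshold under edgeR, and both passed it under DESeq2, with adjusted p of 0.00667 in susceptible and 0.0035 in resilient mice. Over the other settings the adjusted p reached 1.00 in susceptible and 0.968 in resilient mice. Which libraries the choice of Crym rested on is not recorded, so these p-values are no independent support for it.

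Samples with consecutive numbers in the labels were compared as pairs, in case 1 mouse gave both regions under such numbers. The labels do not state this, and they give each library a mouse number of its own. Crym was higher in the NAc library in 15 of 16 pairs, with a median ratio of 4.32 and a range of 0.714 to 14.3. The exception was a susceptible pair with the PFC library at 3.03 FPKM. Of the 16 pairs, 6 are of control libraries, taken to have chosen Crym, so the count is no independent support. Shares over all genes were not computed for such pairs. Ranked by mean level, the 6 groups ran NAc control (7.55 FPKM), NAc susceptible (4.85), NAc resilient (4.32), PFC susceptible (1.33), PFC control (1.04) and PFC resilient (1.00). The step between NAc resilient and PFC susceptible was the only one between neighbours that was larger than the larger of their SDs. Crym counts ran from 87 to 2447 in NAc libraries and from 25 to 490 in PFC libraries. In PFC it had a median of 2.48 times the background.

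Markers of striatal neurons had a higher median in NAc than in PFC. The 6 striatal projection neuron markers summed to 4.57 to 10.7 FPKM in NAc, with a median of 5.63, and to 2.71 to 5.42 FPKM in PFC, with a median of 4.71. None of the 6 was at 0 in all libraries of a group, and their part in the Crym difference was not tested. With the astrocyte marker level as a covariate, the log2 difference of Crym was 2.64 in control, 1.82 in susceptible and 2.15 in resilient mice.

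Dio2, the T4-activating deiodinase, ran the other way between the regions without passing the test. In susceptible mice the 8 NAc libraries had 2.81 to 8.61 FPKM with a median of 4.45, and the 6 PFC libraries had 1.70 to 18.3 FPKM with a median of 10.9. In all, 4 of the 6 PFC libraries lay above all 8 NAc libraries, and 1 lay below them all. The log2 difference was -1.31 ± 0.46 (unadjusted p = 0.00684, edgeR adjusted p = 0.718). In resilient mice the NAc libraries had 1.66 to 5.52 FPKM with a median of 3.21, against 5.84, 17.1, 4.94, 2.94 and 7.37 FPKM in PFC libraries. The log2 difference was -1.57 ± 0.50 (unadjusted p = 0.00314, edgeR adjusted p = 0.288). In control mice the NAc libraries had 3.27 to 7.11 FPKM with a median of 5.40, and the PFC libraries had 2.64 to 12.3 FPKM with a median of 6.43, at a log2 difference of -0.60 ± 0.47 (edgeR adjusted p = 1.00). Without the PFC library with the most Dio2, the log2 difference was -0.87 in susceptible mice (replicate 1 left out) and -0.89 in resilient mice (replicate 2 left out). Over the 16 pairs of consecutive numbers, Dio2 was higher in the NAc library in 3, with a median ratio of 0.595.

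The mean astrocyte marker level was lower in NAc than in PFC in susceptible mice (7.12 and 7.53 log2 CPM) and in resilient mice (6.65 and 7.48), as Dio2 was, but not in control mice (7.24 and 7.09). With it as a covariate, the log2 difference of Dio2 was -0.58 in control, -0.50 in susceptible and -0.46 in resilient mice. With the background as a covariate it was -0.30 in control, -0.66 in susceptible and -0.58 in resilient mice. Ordered by mean, Dio2 had 10.2 ± 6.01 FPKM in PFC susceptible, 7.64 ± 5.53 in PFC resilient, 6.94 ± 3.47 in PFC control, 5.05 ± 1.70 in NAc control, 4.93 ± 1.90 in NAc susceptible and 3.23 ± 1.32 in NAc resilient libraries (SD). No step between neighbours exceeded the larger SD.

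Slco1c1, the T4 carrier, overlapped between the regions in each condition. Its NAc libraries had 1.34 to 7.90 FPKM with a median of 4.18, and its PFC libraries had 1.51 to 10.2 FPKM with a median of 4.70. The log2 difference was 0.05 ± 0.42 in control, -0.82 ± 0.40 in susceptible and -0.82 ± 0.43 in resilient mice, with edgeR adjusted p of 1.00, 0.718 and 0.363. It was -0.017 in control and 0.048 in resilient mice with the astrocyte marker level as a covariate. Without PFC susceptible replicate 1 it was -0.47 in susceptible mice, and without PFC resilient replicate 2 it was -0.31 in resilient mice. The control value also turned negative without 4 of the 13 control libraries, 1 at a time. The 95% interval of the control difference (normal approximation) ran from -0.77 to 0.86, so a difference of either sign within it is not excluded.

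Of the receptors, Thra had 1.5 to 8.01 FPKM in NAc libraries and 1.44 to 5.79 FPKM in PFC libraries, with medians of 2.30 and 2.58 FPKM. Its region differences were -0.03 ± 0.45 in control, -0.55 ± 0.43 in susceptible and -0.86 ± 0.47 in resilient mice, all on the log2 scale. The sign in control mice changed with the scaling, to 0.026 under relative log expression scaling. Thrb had 0.661 to 0.828 FPKM in NAc libraries and 0.702 to 1.38 FPKM in PFC libraries. Its log2 difference was -0.49 ± 0.21 in control, -0.40 ± 0.20 in susceptible and -0.59 ± 0.22 in resilient mice, with edgeR adjusted p of 0.743, 0.718 and 0.318. Without PFC control replicate 2 it was -0.17 in control mice, and without PFC susceptible replicate 1 it was -0.12 in susceptible mice. With the background as a covariate it was -0.32 in control, -0.11 in susceptible and -0.14 in resilient mice. With the astrocyte marker level as a covariate it was -0.49, -0.18 and -0.23 in the same order. Thrb was higher in the NAc library in 1 of 16 consecutive pairs, by a factor of 1.11.

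The PFC libraries with the most receptor RNA were those with the most neuronal RNA. The 5 PFC libraries with the highest sums of cortical neuron markers, 13.7 to 38.3 FPKM, were control replicates 1 and 2, resilient replicates 1 and 2 and susceptible replicate 1. These 5 libraries had 0.986 to 1.38 FPKM of Thrb and 4.82 to 5.79 FPKM of Thra. The other 12 PFC libraries had 0.702 to 0.860 FPKM of Thrb and 1.44 to 3.89 FPKM of Thra. The same 5 libraries also had the lowest backgrounds of the PFC, 13.4% to 36.7% of the even value. Their astrocyte marker levels were 7.77 to 9.15 log2 CPM, against 5.70 to 8.23 in the other 12. Their sample numbers, 1, 3, 5, 7 and 11, were among the lowest of the PFC. The part of neuronal RNA, astrocyte content, sample order or background in the receptor values was not tested.

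Stress comparisons within NAc gave no called gene among 35943 tested (0% called in each), so 0 of the 5 genes passed. At an unadjusted p under 0.05 there were 2206 genes in resilient against control libraries, 1086 in susceptible against control and 1042 in susceptible against resilient. All 5 log2 fold changes were negative in resilient against control NAc libraries, with a median of -0.60, beside a median of 0.01 over all genes tested. Dio2 was at -0.70 ± 0.33 (unadjusted p = 0.0470) and Crym at -0.90 ± 0.45 (unadjusted p = 0.0599). The control NAc libraries are among those taken to have chosen Crym, for its high level there. The Crym value is therefore not independent of the choice. Slco1c1 was at -0.60 ± 0.33, Thra at -0.57 ± 0.37 and Thrb at -0.11 ± 0.10, and the edgeR adjusted p was 0.756 for Crym, Dio2, Slco1c1 and Thra and 0.809 for Thrb. The direction of all 5 differences held without any single library, and Thra was at -0.26 without control replicate 3, its highest library.

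Per library, Dio2 had 1.66 to 5.52 FPKM with a median of 3.21 in resilient NAc libraries, against 3.27 to 7.11 FPKM with a median of 5.40 in control NAc libraries. The ranges overlapped, and 4 resilient libraries lay below every control library. The resilient libraries had a mean astrocyte marker level of 6.65 ± 0.793 log2 CPM, against 7.24 ± 0.507 in control libraries (SD, n = 7 each), and a mean background of 64.4% ± 10.5 against 53.0% ± 9.23 of the even value. With the astrocyte marker level as a covariate, the fold change was -0.30 for Dio2, -0.29 for Crym, -0.15 for Slco1c1, -0.090 for Thra and 0.049 for Thrb on the log2 scale. With the background as a covariate, it was -0.38 for Dio2, -0.57 for Crym, -0.32 for Slco1c1, 0.076 for Thra and 0.0014 for Thrb, so that Thrb changed sign with either covariate and Thra with the background. The part of astrocyte content or background in these differences was not tested beyond these fits.

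In susceptible against control NAc libraries the 5 fold changes were again all negative, with a median of -0.26 beside -0.00 over all genes. Both comparisons share the control libraries, which are among those taken to have chosen Crym. Crym was at -0.73 ± 0.43, with 1.67 to 6.94 FPKM in susceptible and 2.57 to 14.5 FPKM in control libraries. Without control replicate 6, the library at 14.5 FPKM, the Crym value was -0.42, and in the resilient comparison it was -0.58. Thra was at -0.44 ± 0.36, and at -0.13 without control replicate 3. Slco1c1 was at -0.26 ± 0.32, Thrb at -0.12 ± 0.10 and Dio2 at -0.09 ± 0.32, with an edgeR adjusted p of 1.00 for each of the 5. Susceptible against resilient NAc libraries differed by 0.61 ± 0.32 for Dio2 (unadjusted p = 0.0673, edgeR adjusted p = 0.998), by 0.34 ± 0.32 for Slco1c1 and by 0.17 ± 0.43 for Crym. With the astrocyte marker level as a covariate the Crym value was -0.27.

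**Figure D2:**
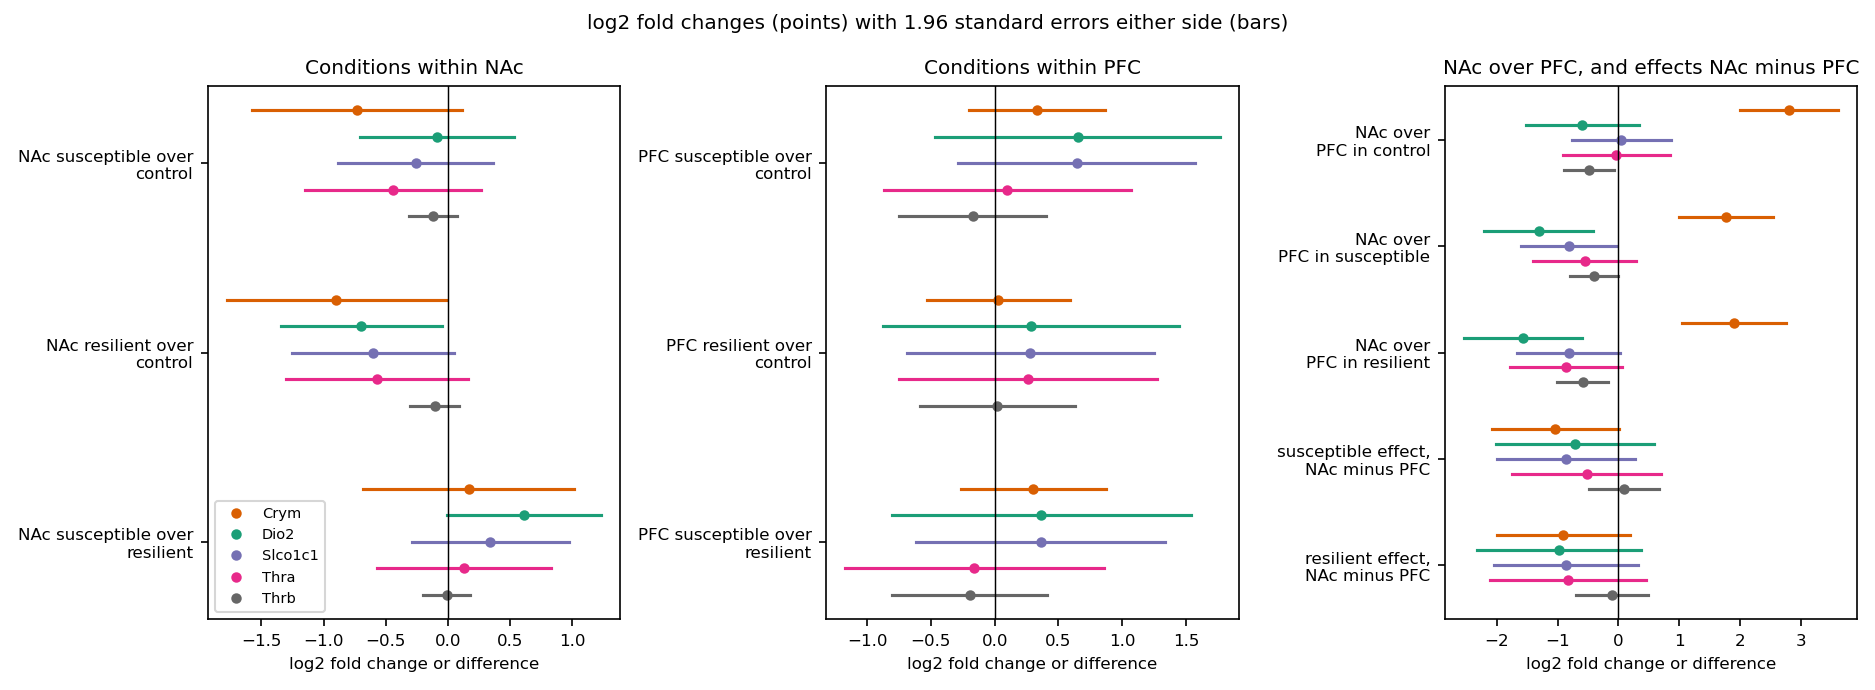
log2 fold changes of the 5 genes (points, coloured by gene) with their 95% intervals by normal approximation (bars), for the conditions within NAc, the conditions within PFC, and the regions with the effects in NAc minus those in PFC. Crym is the gene farthest from 0 between the regions, at 2.81, 1.77 and 1.90, and within PFC the bars of all 5 genes cross 0. The bars are narrower than the edgeR test implies. That of Crym in resilient against control NAc libraries, -1.78 to -0.016, leaves out 0 at an unadjusted p = 0.0599 (edgeR quasi-likelihood test).

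Stress comparisons within PFC gave no called gene among 32167 tested (0% called in each). At an unadjusted p under 0.05 there were 155 genes in susceptible against control, 192 in resilient against control and 184 in susceptible against resilient libraries. Susceptible against control PFC libraries differed by 0.65 ± 0.57 for Dio2 and 0.64 ± 0.47 for Slco1c1 on the log2 scale. The 95% intervals (normal approximation) were -0.46 to 1.77 for Dio2 and -0.29 to 1.57 for Slco1c1. Without susceptible replicate 1 the differences were 0.22 for Dio2 and 0.29 for Slco1c1, and with the astrocyte marker level as a covariate Dio2 was at -0.11. Crym was at 0.33 ± 0.27 and at -0.022 without susceptible replicate 5. Thra was at 0.10 ± 0.49 and Thrb at -0.17 ± 0.30. The 5 resilient against control values lay between 0.02 for Thrb and 0.28 for Dio2, and the susceptible against resilient values between -0.20 for Thrb and 0.37 for Dio2. The edgeR adjusted p was 1.00 for each gene in each of these 3 comparisons.

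The difference of the stress effects between the regions was tested as an interaction over 38171 genes, with 0% called. The susceptible effect in NAc minus that in PFC was -1.04 ± 0.53 for Crym (unadjusted p = 0.0604, edgeR adjusted p = 1.00). It was -0.66 without PFC susceptible replicate 5. Both Crym interactions subtract the control difference taken to have chosen Crym, so their p-values are not independent of the choice. The resilient effect in NAc minus that in PFC was -0.90 ± 0.56 for Crym, -0.97 ± 0.69 for Dio2 and -0.87 ± 0.60 for Slco1c1, with an edgeR adjusted p of 0.849 for each. Without PFC resilient replicate 2, Dio2 was at -0.30 and Slco1c1 at -0.37, and with the astrocyte marker level as a covariate they were at 0.12 and 0.065. At an unadjusted p under 0.05 there were 528 genes for the susceptible and 1318 for the resilient interaction.

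Within groups, most of the genes followed the astrocyte marker level of a library. For each library, the mean log2 CPM of the 13 astrocyte markers and the log2 CPM of each gene were taken as deviations from their group means, and 10 correlations were computed. In NAc (n = 22), Pearson's r was 0.930 for Slco1c1, 0.917 for Thrb, 0.819 for Crym, 0.810 for Dio2 and 0.809 for Thra, with Spearman's rho of 0.931, 0.934, 0.854, 0.781 and 0.744. In PFC (n = 17), r was 0.974 for Slco1c1, 0.973 for Dio2, 0.868 for Thra and 0.755 for Thrb, with rho of 0.958, 0.953, 0.885 and 0.784. For these 9 relations the permutation p adjusted over the 10 was at most 0.000967 for r, and 1e-05 is the smallest unadjusted p that 100000 permutations can give. Without the 2 libraries farthest from the median astrocyte level, r was 0.682 to 0.965 in these 9. On log2(FPKM + 0.5) it ran from 0.522 for Thrb in PFC (adjusted permutation p = 0.0304) to 0.961 for Dio2 in PFC. Thrb in NAc, near background, was at 0.782 on that scale. Points share a library's depth and background, which enter both axes. The share of all genes with correlations as high was not computed, so nothing particular to these genes is read from them.

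Crym in PFC was the exception to this pattern. Its r was 0.287 (permutation p = 0.320, adjusted p = 0.320) and its rho 0.480 (permutation p = 0.0779, adjusted p = 0.0779). Without the 2 farthest libraries r was 0.296. The value rested on 1 library: without PFC susceptible replicate 5, r was 0.600 and rho 0.712, with adjusted permutation p-values of 0.013 and 0.00557. On log2(FPKM + 0.5), which has no scaling between libraries beyond the total, r was -0.198. Whether the relation differs between NAc and PFC was not tested.

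**Figure D3:**
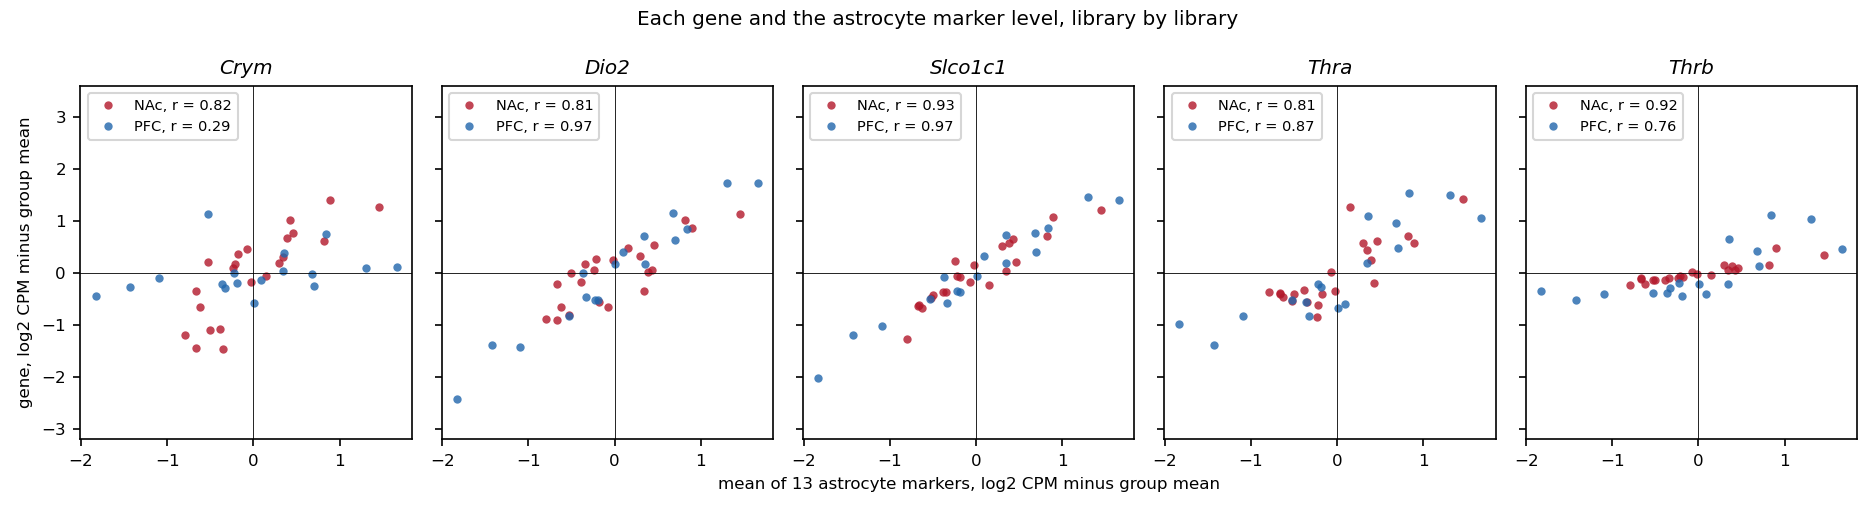
Each gene's log2 CPM against the mean log2 CPM of 13 astrocyte markers, both as deviations from group means, in 22 NAc libraries (red) and 17 PFC libraries (blue); points are libraries. Slco1c1 follows the astrocyte level closely in NAc (r = 0.930) and PFC (r = 0.974), and the PFC point of Crym that stands apart at the upper left is susceptible replicate 5.

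Among themselves, the deiodinase and the T4 carrier moved most alike in PFC, where the deviations of Dio2 and Slco1c1 correlated at r = 0.991, and at 0.791 in NAc. In NAc the highest value was that of Slco1c1 and Thrb, at 0.903. Thra and Thrb correlated at 0.941 in PFC and 0.720 in NAc. Crym and Slco1c1 correlated at 0.827 in NAc and 0.306 in PFC. These values are descriptions over 22 and 17 libraries that share the same astrocyte content per library.

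Genes of like pattern were named by the highest Pearson correlation of log2 CPM over the 39 libraries, among 17789 genes. For Crym the closest were Fzd5, a Wnt receptor (r = 0.858), and C4b, a complement component (0.854). Fzd5 averaged 2.15 FPKM in NAc and 0.768 FPKM in PFC, and C4b 2.97 FPKM in NAc and 1.19 FPKM in PFC. C4b has a near-identical copy, C4a, and reads may have been split between them. After removal of the group means, the 3 closest to Crym were C4b (0.735), Abca1 (0.714), a cholesterol exporter, and Bcl2 (0.712), an inhibitor of apoptosis. The values for Crym were lower than those of the other 4 genes, whose closest partners reached 0.948 to 0.978.

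Slco1c1 was closest to Slc1a2 (0.971), the main astrocyte glutamate transporter and 1 of the 13 markers above, followed by Ptprz1 (0.970) and Tspan7 (0.967). For Dio2 the closest were Luzp2 (0.948), Msmo1 (0.946), an enzyme of cholesterol synthesis, and Chst2 (0.942), a sulfotransferase. For Thra they were Dpysl2 (0.978), Mink1 (0.976) and Map7d1 (0.976), and for Thrb Aak1 (0.973), Hivep2 (0.973) and Nlgn1 (0.972).

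By FPKM over the whole gene span, which long introns lower, the rest of the pathway was mostly near background. Of 7 transporters, only Slco1c1 exceeded 2 times the background at the median of either region. The system L amino acid transporter subunits, which also carry thyroid hormone, were at 1.03 times the background in NAc and 1.18 in PFC for Slc7a5, and at 1.91 in NAc and 1.97 in PFC for Slc7a8. Dio3, the deiodinase that inactivates both T4 and T3, averaged 0.316 FPKM in NAc and 0.263 FPKM in PFC, with 0 to 34 counts a library, and it had 0 counts in 2 of 22 NAc and 5 of 17 PFC libraries. Dio1 averaged 0.755 FPKM in NAc and 0.581 FPKM in PFC. Of the binding proteins, Ttr (transthyretin, the choroid plexus carrier of T4) was at 1.46 times the background in both regions, and Serpina7 (the plasma thyroxine-binding globulin) was below it.

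The receptor partners ranged from near background to over 3 times it. Rxrg was at 1.64 times the background in NAc and 1.75 in PFC, and Rxra at 1.82 and 1.99, about the level of Thrb. The thyroid receptor coactivator component Thrap3 was at 3.14 times the background in NAc and 3.82 in PFC, and the retinoid X receptor Rxrb at 3.19 and 3.65. The corepressor Ncor1 was at 2.32 in NAc and 2.60 in PFC. Among 12 receptors and partners, 11 had negative fold changes in resilient against control NAc libraries (median -0.21), and none was called. The 12 include Thra and Thrb, which changed sign with covariates as given above. The same resilient libraries had the lower astrocyte marker level and higher background given above, and a median oligodendrocyte marker sum of 27.8 FPKM, against 70.2 FPKM in control libraries, whose part was not tested for the partners. The smallest p of the 12 was that of the mediator subunit gene Med1, at -0.34 ± 0.13 (unadjusted p = 0.0142, edgeR adjusted p = 0.756). In susceptible against control NAc libraries 10 of the 12 were negative (median -0.14, none called). Medians over all genes tested were 0.013 in the resilient and -0.0011 in the susceptible comparison. Shares of negative values among all genes were not computed for these or the other sign counts, so no trend is read from them.

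**Figure D4:**
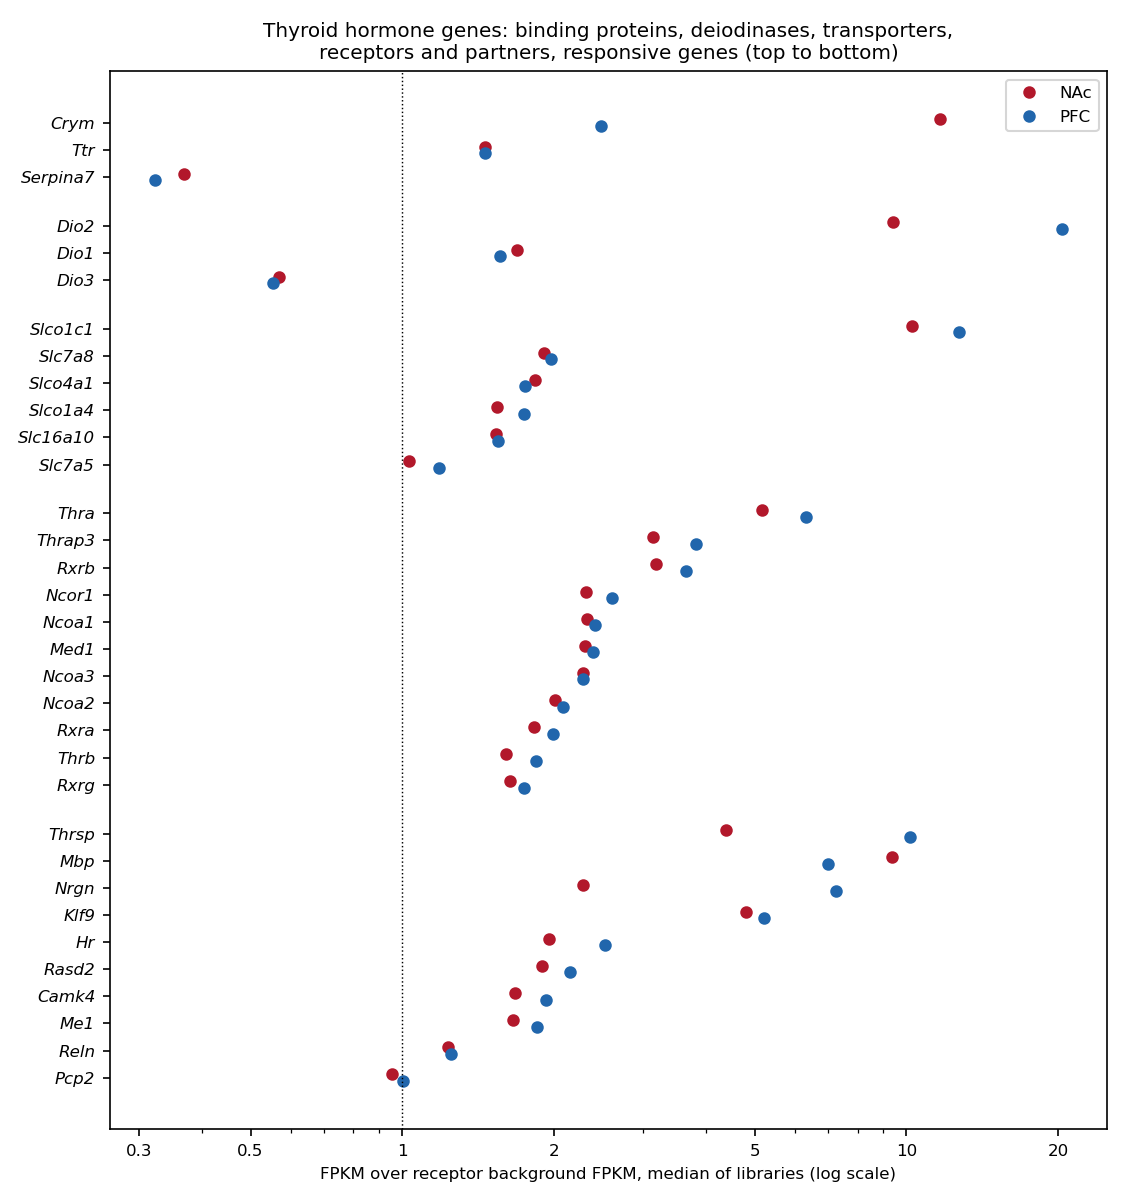
Median over libraries of each gene's FPKM divided by the receptor background (log scale), in NAc (red) and PFC (blue), with groups from top to bottom of binding proteins, deiodinases, transporters, receptors with their partners, and responsive genes; the dotted line marks the background. Crym at 11.7 in NAc and 2.48 in PFC, Dio2 at 9.39 in NAc and 20.3 in PFC, and Slco1c1 at 10.2 in NAc and 12.7 in PFC stand out in their groups.

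The list of 10 genes known to respond to thyroid hormone held no called gene in any comparison. In control mice, 9 of the 10 had negative fold changes between NAc and PFC (median -0.12, against -0.02 over all genes), 8 in susceptible and 7 in resilient mice. The list holds neuronal genes such as Nrgn, and the 5 cortical neuron markers had median sums of 4.24 FPKM in NAc and 8.00 FPKM in PFC, whose part in these differences was not tested. Nrgn, which encodes the neuronal protein neurogranin, averaged 1.09 FPKM in NAc and 6.30 FPKM in PFC, with log2 differences of -3.19 ± 0.68 in control (edgeR adjusted p = 0.185), -2.75 ± 0.62 in susceptible and -2.84 ± 0.68 in resilient mice. Thrsp, the thyroid hormone responsive gene of lipid synthesis, averaged 2.06 FPKM in NAc and 4.45 FPKM in PFC, with log2 differences of -1.08 ± 0.38, -1.13 ± 0.37 and -1.73 ± 0.40 in control, susceptible and resilient mice (edgeR adjusted p = 0.425, 0.718 and 0.251). Klf9, a transcription factor gene directly induced by T3, averaged 2.20 FPKM in NAc and 2.69 FPKM in PFC. Mbp, encoding myelin basic protein, was at -1.05 ± 0.39 in resilient against control NAc libraries (unadjusted p = 0.0134, edgeR adjusted p = 0.756), where the 8 oligodendrocyte markers, Mbp among them, had median sums of 27.8 FPKM in resilient and 70.2 FPKM in control libraries.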

How the data were processed

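Libraries were made with a stranded total RNA kit from picogram inputs, per the labels' protocols. The deposited tables hold whole-number counts per gene from featureCounts on mm10, per the submitters' processing notes, and FPKM, which the authors' file gives as counts per kilobase of gene span per library total: the span in GENCODE M21 matched 54229 of 54229 genes within a relative 1e-06. Neither the annotation release, the strand setting nor the aligner is given in the sources used here. Of 55401 IDs, 55141 were named through GENCODE M21, no library pair was identical, and 0 columns were left unused.

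Counts were tested with edgeR 4.0.16 in R 4.3.3 (TMM scaling, filterByExpr, robust quasi-likelihood fit, Benjamini-Hochberg over all genes tested, call at an adjusted p under 0.05), in 1 fit per region and 1 fit of all 39 libraries for region comparisons and interactions. SE is the fold change over the root of its F statistic. CPM used a prior count of 2, and r and rho came from scipy 1.17.1 with 100000 permutations within groups. Alternatives used DESeq2 1.42.0 and limma 3.58.1. The fits were tested on simulated counts. Members and lists were chosen with earlier results of these data known; the receptor background and marker lists likewise. Named genes were the 5 members, up to 2 genes per list and comparison with the smallest p, the 3 most alike, and, chosen after their values were seen, genes of the lists described by level.

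Replicate numbers were checked as pairs: deviations of same-numbered libraries correlated above 0.1 in all 5 pairs of resilient and control PFC libraries, and in 5 of 6, 4 of 5, 4 of 7, 3 of 7 and 1 of 7 pairs of the other comparisons within regions. No label says what the numbers share, and the fit without a block was kept. Total counts per library are given above; reads are not independent molecules. Nothing beyond a mouse number says that replicates are separate animals, so p-values measure the spread between libraries. Values of some genes of the lists are not reported here.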

Additional observations from a re-analysis of the deposited data

Results flagged for a closer look

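Within each group of libraries, the gap between the highest or lowest FPKM and its neighbour was set against the group's range by Dixon's test. Of 30 groups tested, 3 had a library past the 95% critical value, where chance gives about 1 in 20 groups.

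Crym was at 3.03 FPKM (326 counts) in PFC susceptible replicate 5, against 0.864 to 1.30 FPKM in the other 5 libraries, a gap of 0.799 of the range. That library had 5.33 FPKM of striatal neuron markers, against 2.71 to 5.11 FPKM in the others, and its astrocyte sum of 143 FPKM lay within theirs. Its Fzd5 was at 1.73 FPKM, against 0.637 to 1.21 FPKM, and its C4b at 2.67 FPKM, against 0.812 to 1.64 FPKM. Both genes were named for their likeness to Crym over libraries that include this one, so their high values here are no separate evidence. The part of these in the Crym value was not tested.

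Thra was at 8.01 FPKM (214 counts) in NAc control replicate 3, against 1.85 to 3.94 FPKM in the other 6, a gap of 0.661 of the range. That library was the shallowest of all, at 941450 counts, and had the lowest background of its group, 35.7% against 45.3% to 59.8%, and the highest oligodendrocyte sum, 183 against 26.2 to 165.8 FPKM.

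Thrb was at 1.13 FPKM in PFC susceptible replicate 1, against 0.702 to 0.815 FPKM in the other 5, a gap of 0.736 of the range. That library had the lowest background of all, 13.4%, and 29.6 FPKM of cortical neuron markers, against 3.52 to 9.55 FPKM in the others of its group. Its astrocyte sum, 371 FPKM, was also above the 45.0 to 342 FPKM of those others.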

How the results depend on the processing

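Of 676 values under other settings, 615 kept their direction and their side of the threshold, and 48 changed sign, all of differences or correlations that did not pass the test. The Crym difference between NAc and PFC in control mice, given without a test, was 2.25 to 2.88 under 10 other settings and 2.50 to 3.01 with single libraries left out. Thrb lies near background, shallow libraries limit the low genes, and the regions' libraries differ in astrocyte content and background.

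Under DESeq2, Crym passed between regions in susceptible (1.76, adjusted p = 0.00667) and resilient mice (1.89, adjusted p = 0.0035), and genes called between regions were 81 in control, 5 in susceptible and 55 in resilient mice. Calls in control mice were 17 with limma-voom, 75 with the astrocyte covariate, 297 with the background covariate and 3 with consecutive numbers as pairs, against 1. Calls in susceptible mice were 7 with the astrocyte covariate and 0 with those pairs, against 1, and 2 in resilient mice with the astrocyte covariate, against 0. With limma-voom 1 gene was called for the susceptible interaction. The cause of these shifts was not tested.

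Signs changed as follows, on the log2 scale. In susceptible against control NAc libraries, Dio2 was 0.0099 with limma-voom, 0.0076 without the 3 shallowest libraries and 0.048 with the replicate block. In resilient against control NAc libraries, Thrb was 0.049 with the astrocyte and 0.0014 with the background covariate, and Thra 0.076 with the background covariate. In susceptible against resilient NAc libraries, Crym was -0.012 with limma-voom, -0.27 with the astrocyte and -0.12 with the background covariate, Thra -0.19 and -0.30 with these covariates, and Thrb 0.0054 with limma-voom and 0.020 with the replicate block.

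In susceptible against control PFC libraries, Dio2 was -0.11 and Thra -0.27 with the astrocyte covariate, and Thra -0.042 with the background covariate. In resilient against control PFC libraries, Crym was -0.011 and Thrb -0.019 with no count filter, -0.032 and -0.024 with limma-trend on log2(FPKM + 0.5), -0.011 and -0.12 with the astrocyte and -0.0016 and -0.019 with the background covariate. There Dio2 was -0.30 with the astrocyte and -0.015 with the background covariate, and Slco1c1 -0.19 and Thra -0.093 with the astrocyte covariate.

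Between the regions, Thra in control mice was 0.026 with relative log expression scaling, 0.048 with DESeq2, 0.20 with limma-voom, 0.14 with limma-trend, 0.27 with the background covariate and 0.33 with the replicate block shared by the regions. Thra was 0.049 with limma-voom and 0.11 with the background covariate in susceptible mice, and 0.18 with the background covariate in resilient mice. Slco1c1 was -0.017 in control and 0.048 in resilient mice with the astrocyte covariate. Of the interactions with the astrocyte covariate, Dio2 was 0.082 for the susceptible effect, and for the resilient effect Dio2 was 0.12, Slco1c1 0.065, Thra 0.0027 and Thrb 0.26. For the resilient effect, Thrb was 0.015 with limma-trend, 0.18 with the background covariate and 0.035 with consecutive pairs. Crym and the astrocyte level in PFC had r = -0.198 on log2(FPKM + 0.5). The replicate block changed no call. A block of replicate number by region could not be fitted for comparisons between regions, and a block shared by the regions was chosen after seeing the data, as were single libraries left out of the correlations.

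Of 1209 values with 1 library left out, 1157 kept direction and side. Genes called ran from 0 to 2 between regions in susceptible mice, and from 0 to 85 in resilient mice, 85 without PFC resilient replicate 4. In NAc, Dio2 in susceptible against control libraries ran from -0.26 to 0.085, and Thrb in susceptible against resilient libraries from -0.048 to 0.043. In PFC susceptible against control libraries, Crym ran from -0.022 to 0.49, Thra from -0.33 to 0.51 and Thrb from -0.44 to 0.11. In PFC susceptible against resilient libraries, Crym ran from -0.059 to 0.42, Dio2 from -0.066 to 1.05 and Thra from -0.59 to 0.11. In PFC resilient against control libraries, Crym ran from -0.059 to 0.21, Dio2 from -0.41 to 0.58, Slco1c1 from -0.23 to 0.51, Thra from -0.016 to 0.69 and Thrb from -0.14 to 0.32. Between regions in control mice, Slco1c1 ran from -0.17 to 0.24 and Thra from -0.35 to 0.42. Thrb ran from -0.23 to 0.35 for the susceptible and from -0.44 to 0.033 for the resilient interaction. The r of Crym in PFC ran from 0.161 to 0.600.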
